A study of Homo sapiens with 3 samples.

Results

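Cells of the human lung adenocarcinoma line NCI-H1650, which is established in culture and carries an activating deletion in EGFR, were compared after 24 h of exposure to 40 μM colossolactone H, a triterpenoid of the fungus Ganoderma colossum, with control cells of the same line. The comparison used 2 of the 3 arrays of the series, 1 for each condition, and the third array, of cells exposed to the same dose for 12 h, was read beside them to place each difference in time. All 54675 probe sets of the Affymetrix HG-U133 Plus 2.0 design had a value, and the 41097 that the platform annotation gives to a single gene were used, which made 19775 genes. Of these, 12341 were measured, meaning that the signal exceeded a floor of 61.4 units on at least 1 of the 3 arrays. Genes on 8 lists (458 genes, 424 of them measured) were set aside, namely the integrated stress, unfolded protein, oxidative stress and heat shock responses, p53 and apoptosis, DNA replication, mitosis and recombination repair, and the other 11917 measured genes are described here.

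Treated cells were plated at 1000000 per dish of 10 cm. For every array, total RNA was isolated with Trizol, and 6 μg of it was turned into biotin-labelled cRNA. The labels name neither a vehicle nor the time at which control cells were harvested, so the age of the control culture relative to 24 h is unknown. With 1 array a condition there is no spread between replicates, no test and no error, and the number of arrays limits the precision of every value below. Differences are log2 of the 24 h signal over the control signal, 2-fold is a difference of 1, and signals are listed in the order control, 12 h, 24 h unless stated.

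Lanostane triterpenoids of Ganoderma fungi resemble sterols in their ring skeleton and are known for killing tumour cells in culture. Carcinoma cells are surrounded by a matrix and by signals that they make themselves, and among the latter are ligands of the TGF-beta and Wnt families. The transcription partners YAP and TEAD read attachment and cell shape and turn on matricellular genes. In whole-culture RNA, fewer cells of a type and less RNA per cell cannot be told apart.

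The 3 arrays had median signals of 61.7, 60.6 and 61.8 and between 27227 and 27388 probe sets above the floor. The ratio of 3' to 5' signal of ACTB, which climbs as RNA breaks down, was 4.95, 5.38 and 6.55, and that of GAPDH was 1.21, 1.251 and 1.24; the part of RNA quality in the results was not tested. Epithelial markers were measured for 8 of 8 genes, with a summed signal of 75391, 73043 and 73874. Of the lung lineage markers 4 of 6 were measured, and these 4 summed to 559, 602 and 566, while NKX2-1, the lineage factor of lung adenocarcinoma, and SLC34A2, a phosphate carrier of alveolar cells, lay below the floor on every array. The leukocyte list, which also holds the haemoglobin gene HBB, was measured for 3 of the 9 genes on the array. These 3, CSF1R, ITGAM and HBB, summed to 338, 274.7 and 263.5, with CSF1R at 198, 186 and 179.5. PTPRC, the leukocyte antigen CD45, lay below the floor throughout.

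Outside stress and cell cycle genes, the largest lower values at 24 h included TGFB2, a secreted transforming growth factor, SFRP1, a secreted Wnt inhibitor, SMAD6, an inhibitory SMAD, and KRT15, a basal keratin. Of these, TGFB2, SFRP1 and KRT15 did not stay past 2-fold in each of 9 ways of processing the signals. On the higher side stood KCTD6, a cullin adaptor, KLHDC7B, a kelch-domain protein, CALCB, a calcitonin gene-related peptide, and ALDH2, the mitochondrial aldehyde dehydrogenase. At 24 h 70 genes passed 2-fold on the higher side, 0.567% of 12341, and 77 on the lower side, 0.624%. Outside the lists set aside the counts were 53 higher (0.445% of 11917) and 71 lower (0.596%), so 124 of 147 were neither stress nor cell cycle genes by these lists. Over all measured genes the median difference was 0.00, with 6020 higher and 6161 lower.

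**Figure D1:**
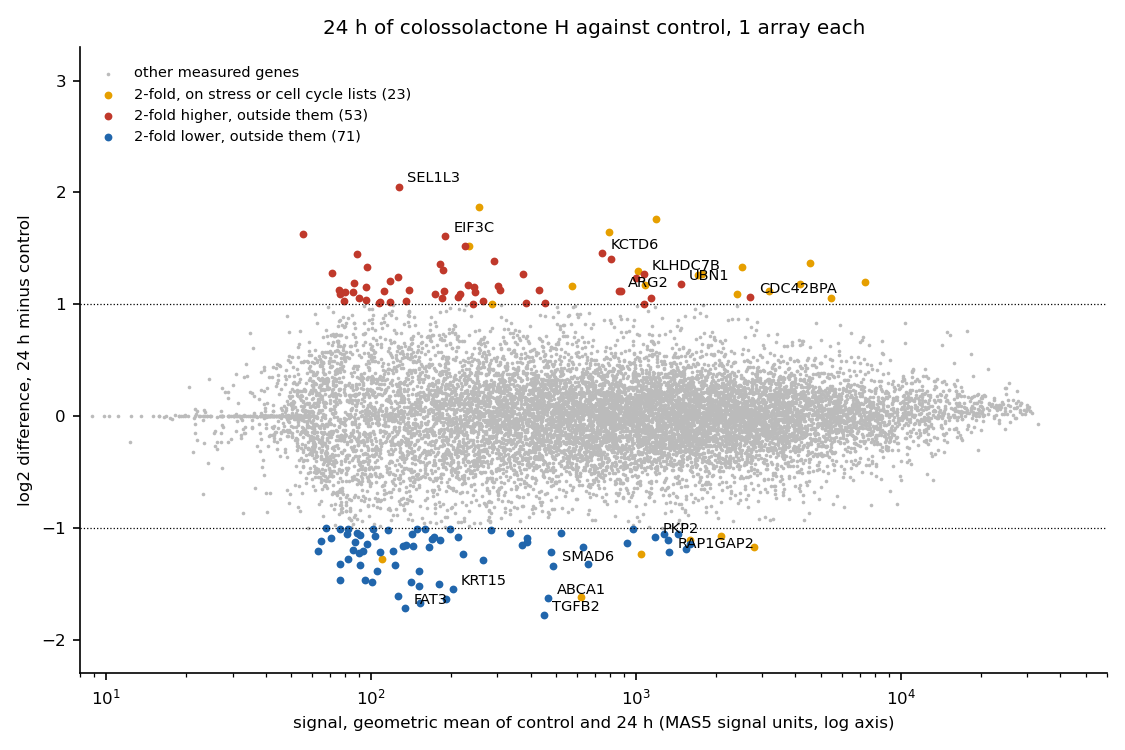
Each point is a measured gene, with the geometric mean of its control and 24 h signals (MAS5 units, log axis) against its log2 difference (24 h minus control); dotted lines mark 2-fold, and colours mark the 53 genes 2-fold higher and 71 lower outside the stress and cell cycle lists and the 23 on them. Points spread more at low signals, and the 2-fold genes lie mostly below 1000 units.

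The 2-fold genes were mostly dim. On the brighter of the pair of arrays, 18 of the 53 higher and 26 of the 71 lower genes did not exceed 192.4 units, the 65th percentile of all values, and 10 of each exceeded 1000. By mean signal, 3.76% of genes between 100 and 200 units passed 2-fold, against 0.769% between 1000 and 3000. Of the 124 genes 41 had 2 or more measured probe sets, all of the same sign for 30, and 83 rested on 1 probe set. A second probe set also passed 2-fold in that direction for only 6 of the 41. For 10 of the 124 the probe set used has possible cross-hybridisation, among them CYP1A2, CYP4F2, NAF1, PDGFB, RUNDC3A, SLFN5, SPN and TMIGD2.

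The promoters of the 2-fold genes outside the lists were searched for 5 motifs, among them one that C/EBP and ATF proteins bind as partners (TGATGNAAT) and the cAMP response element of CREB and ATF proteins (TGACGTCA). RefSeq promoters of build GRCh38.p14, which run from 250 bases before to 50 bases after the transcription start, were matched for 41 of the 53 higher and 51 of the 71 lower genes, and both strands were searched. The C/EBP-ATF letters were in 3 of 41 higher promoters (7.32%) and in 0 of 51 lower ones, against 0.498% of 10046 promoters of measured genes and 1.02% of all 27305. The cAMP response letters were in 4 of 41 (9.76%) and 0 of 51, against 3.24% and 1.98%. The antioxidant letters TGACNNNGC, which NRF2 partners bind, stood in 7 of 41 higher (17.1%) and 7 of 51 lower promoters (13.7%), against 15.4% of measured genes and 13.6% of all. The E2F letters TTTNGCGC stood in 1 of 41 and 1 of 51, against 2.99% and 1.83%, and the E-box CCACGTGG in 1 of 41 and 0 of 51, against 1.19% and 0.945%. The cAMP response and antioxidant letters both begin with TGAC, but neither can overlap the other on either strand. Among the late genes, defined below, the antioxidant letters stood in 5 of 14 higher (35.7%) and 2 of 13 lower promoters (15.4%). The cAMP response letters stood in 2 of 14 (14.3%) and 0 of 13, and the E2F letters in 1 of 14 and 0 of 13. The C/EBP-ATF and E-box letters stood in 0 of 14 and 0 of 13. A match is a description of the letters and shows neither a bound site nor a cause.

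These 4 promoters, all on the plus strand, are shown because their genes stood 2-fold higher and hold one of those motifs, which is in capitals on the strand shown (ATTTCATCA is TGATGNAAT read on the other strand). The lines are from KLHDC7B at chr22:50545649-50545948, S100P at chr4:6693628-6693927, ARG2 at chr14:67619670-67619969 and UBN1 at chr16:4847231-4847530.
KLHDC7B: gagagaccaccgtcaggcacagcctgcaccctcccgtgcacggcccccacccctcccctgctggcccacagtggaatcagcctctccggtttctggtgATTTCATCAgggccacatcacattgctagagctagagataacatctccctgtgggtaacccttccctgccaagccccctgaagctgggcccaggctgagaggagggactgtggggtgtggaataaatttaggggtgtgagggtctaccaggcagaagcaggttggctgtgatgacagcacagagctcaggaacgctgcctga
S100P: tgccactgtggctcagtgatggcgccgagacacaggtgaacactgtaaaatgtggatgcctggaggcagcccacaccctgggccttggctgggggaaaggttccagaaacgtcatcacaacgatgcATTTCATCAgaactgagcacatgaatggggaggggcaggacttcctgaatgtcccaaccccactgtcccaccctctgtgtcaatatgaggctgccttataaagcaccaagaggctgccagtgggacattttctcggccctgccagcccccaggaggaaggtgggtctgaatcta
ARG2: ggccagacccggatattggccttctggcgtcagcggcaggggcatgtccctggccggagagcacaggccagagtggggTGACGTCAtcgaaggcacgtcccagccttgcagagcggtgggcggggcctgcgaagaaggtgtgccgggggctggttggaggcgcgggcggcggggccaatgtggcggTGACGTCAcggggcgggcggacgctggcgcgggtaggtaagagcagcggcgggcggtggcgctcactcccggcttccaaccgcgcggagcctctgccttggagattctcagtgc
UBN1: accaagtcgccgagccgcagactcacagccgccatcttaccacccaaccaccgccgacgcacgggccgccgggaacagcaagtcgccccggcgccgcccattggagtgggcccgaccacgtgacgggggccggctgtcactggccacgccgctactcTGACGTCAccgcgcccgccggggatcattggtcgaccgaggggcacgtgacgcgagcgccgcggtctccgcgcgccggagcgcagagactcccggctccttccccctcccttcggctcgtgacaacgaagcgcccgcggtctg

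In KLHDC7B the C/EBP-ATF letters lay 152 to 144 bases before the start, and in S100P, which encodes a calcium-binding S100 protein, 124 to 116 bases before it. The third holder was the long noncoding RNA gene LINC02806. ARG2, the mitochondrial arginase, held the cAMP response letters at 2 places, starting 172 and 64 bases before the start, and UBN1, a subunit of the histone H3.3 chaperone complex HIRA, held them at 93 bases. The other holders were THAP3 and LINC03011. Of the holders of these motifs, KLHDC7B and LINC03011 stayed past 2-fold in each of the 9 ways of processing the signals. The lowest values of the others were 0.10 for S100P, 0.40 for LINC02806, 0.48 for THAP3, 0.53 for UBN1 and 0.55 for ARG2. S100P, ARG2, THAP3, LINC02806 and LINC03011 are named here after their values were seen. KLHDC7B stood at 688, 1603 and 1658 units, a difference of 1.27, and S100P at 94, 209 and 206, a difference of 1.13, so both had most of their difference by 12 h. ARG2 stood at 587, 964 and 1271, with 0.72 at 12 h and 1.11 at 24 h on its brightest probe set, while its second, at 166, 265 and 242, had 0.68 and 0.55. UBN1 at 979, 890.4 and 2217 was not higher at 12 h and was at 1.18 at 24 h on its brightest probe set, while its second probe set was at -0.12.

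Among the other genes with the largest higher values, SEL1L3 went from near the floor, at 62.4, 181 and 259 units, and its 2 probe sets spanned 0.30 to 2.05. PACSIN3, a membrane-bending protein of endocytosis, stood at 134, 430 and 384, a 24 h difference of 1.52. KCTD6 stood at 451, 769 and 1239, a difference of 1.46, and its second probe set was at 0.81. VWA5A was at 495, 962 and 1313, with 1.41 on its brightest and 0.46 on its second probe set. CALCB stood at 654, 1269 and 1535, a difference of 1.23. EEFSEC, the elongation factor that inserts selenocysteine, was at 77.5, 153 and 179, a difference of 1.21 at dim signals. TMEM140 was at 1.36 and ZNF345, a zinc finger gene, at 1.24, both below 300 units on every array. SPN, the leukocyte sialoglycoprotein CD43, was at 119, 270.4 and 294 on a probe set with possible cross-hybridisation, a difference of 1.30, and its second probe set was at 0.18. NR1H3, which encodes liver X receptor alpha, was at 1.17, while ABCA1, the cholesterol exporter that this receptor turns on, stood at 819, 158 and 266, a difference of -1.62 on its brightest and -2.11 on its other probe set.

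Several of the higher genes encode enzymes and carriers. ALDH2 stood at 791, 1253 and 1646, a difference of 1.06, and was past 2-fold in each of 9 ways of processing the signals. CYP4F3, a hydroxylase that inactivates leukotriene B4, stood at 719, 1262 and 1421, a difference of 0.98. Its relative CYP4F2 lay below the floor in the control and was at least 3.09-fold higher at 24 h. The CYP4F2 value came from a probe set with possible cross-hybridisation. A further probe set, which the annotation gives to both genes, was at 1.10, and on it signal of the pair cannot be told apart. SLC31A1, the copper importer, stood at 1951, 3031 and 3551, a difference of 0.86, and its 3 probe sets spanned 0.46 to 0.86. SLC27A4, a fatty acid transport protein, stood at 186, 208 and 379, a difference of 1.03 that was 0.17 at 12 h. In phospholipid synthesis, PCYT1A, the regulated enzyme of phosphatidylcholine synthesis, stood at 1490, 1801 and 2508 with 3 of 3 probe sets between 0.70 and 0.75, and GPAT3, a glycerol-phosphate acyltransferase, was at 0.74. CSTA, a cystatin that inhibits cysteine proteases, was at 168, 325 and 363, a difference of 1.11. RIOK2, a kinase of small-subunit ribosome maturation, was at 761, 1187 and 1524, a difference of 1.001. NAF1, an assembly factor of box H/ACA ribonucleoproteins, was at 598, 1023 and 1298, a difference of 1.12 on a probe set with possible cross-hybridisation. These 3 were named after their values were seen.

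**Figure D2:**
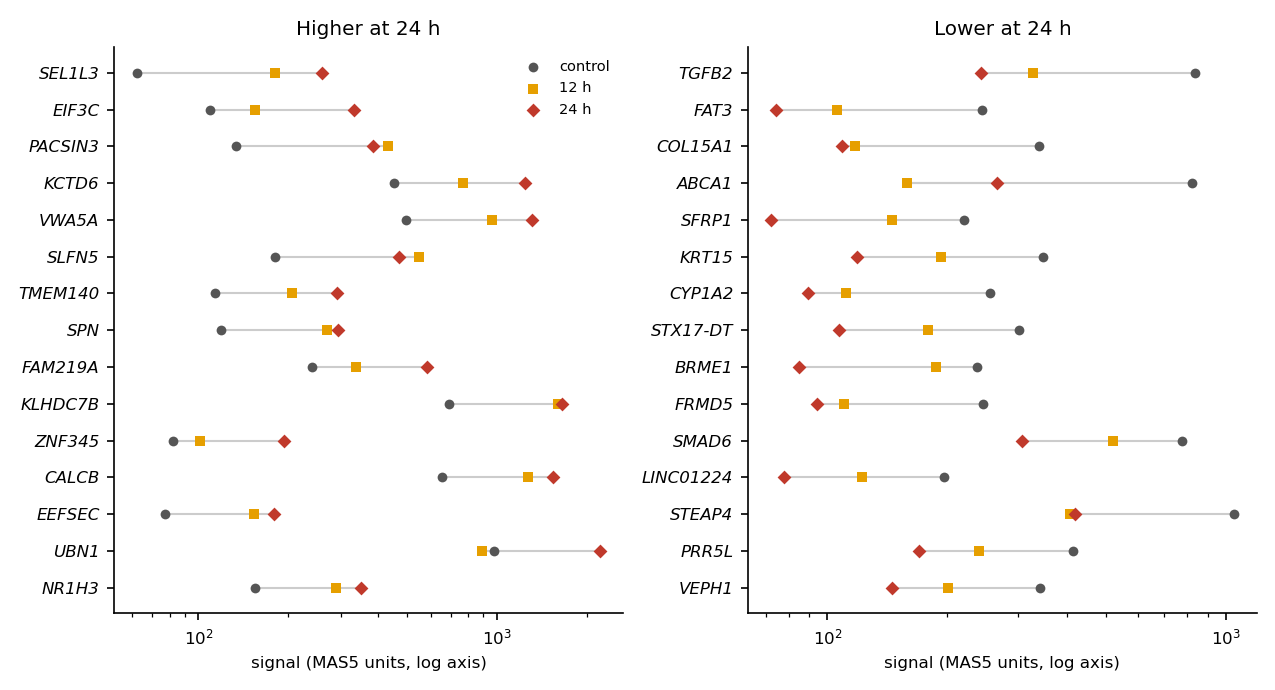
MAS5 signal (log axis) on the control (grey circles), 12 h (orange squares) and 24 h (red diamonds) arrays for the 15 genes with the largest higher and the 15 with the largest lower differences at 24 h that were above the floor on both arrays and had no other probe set of clearly opposite sign. For most genes the 12 h signal lies between the others; UBN1 at 12 h lies beside its control, and ABCA1 at 12 h lies below its 24 h signal.

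On the lower side, several genes had most of their difference by 12 h. COL15A1, a collagen of basement membrane zones, stood at 339, 118 and 109 units, a difference of -1.64, and FAT3, an atypical cadherin, at 244, 106 and 74.2, a difference of -1.72. STEAP4, a metalloreductase of iron and copper uptake, stood at 1046, 407 and 417, with -1.36 at 12 h and -1.33 at 24 h. PRR5L, a partner of mTOR complex 2, stood at 414, 240 and 169.7, and its 2 probe sets were at -1.28 and -0.84. CYP1A2, a cytochrome of xenobiotic metabolism, was at -1.51 on a probe set with possible cross-hybridisation. FRMD5 at -1.38 had a further probe set at -0.21, and VEPH1 at -1.23 had further ones at -0.47 and 0.00. Genes below the floor at 24 h give bounds. MMP12, macrophage elastase, was at least 2.50-fold lower from 154 units, IL12A, a subunit of interleukin 12, at least 2.76-fold from 169.5, and SPRR3, a cornified envelope protein, at least 2.43-fold from 149. RIBC2 was at least 2.80-fold lower from 172. On the higher side, ZKSCAN3, a zinc finger repressor of autophagy genes, was at least 2.73-fold higher on 1 probe set and at 0.51 on its second, PIERCE2 at least 2.52-fold, NUDT18, a hydrolase of oxidised nucleotides, at least 2.29-fold, and FAM174B at least 2.18-fold on a probe set whose partner was at -0.27. All 4 stayed below 170 units at 24 h.

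Brighter lower genes included a pair that act on the small GTPase RAP1. RAP1GAP2, a GTPase-activating protein of RAP1, stood at 2026, 739 and 874, a difference of -1.21, and APBB1IP, the RAP1 effector RIAM, at 2366, 1014 and 1072, a difference of -1.14, with a dim second probe set at -0.21. HAS3, a hyaluronan synthase, stood at 1842, 852 and 886, a difference of -1.06, and PKP2, a desmosomal plakophilin, at 1712, 972 and 809.8, a difference of -1.08. VTCN1, the immune checkpoint ligand B7-H4, stood at 554, 164 and 249, and was thus lower at 12 h, at -1.76, than at 24 h, at -1.15. GASK1B, a Golgi-associated kinase-like protein, stood at 2346, 1149.6 and 1026, the long noncoding RNA UCA1 at 1374, 794 and 628, and CDCA7L at 2082, 1090.1 and 1005, with differences of -1.19, -1.13 and -1.05. RAP1GAP2, APBB1IP, GASK1B, UCA1 and CDCA7L were named after their values were seen. EDN1, the vasoconstrictor endothelin 1, also named that way, stood at 402, 196 and 199, a difference of -1.02 with the other 2 probe sets at -0.57 and -0.66.

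The late response was read as genes 2-fold from the control at 24 h that also moved by 1.5-fold or more from 12 h to 24 h in the same direction. Outside stress and cell cycle lists it held 14 higher genes, 0.117% of 11917, and 21 lower genes, 0.176%. Both steps share the 24 h array, and the 12 h and 24 h differences share the control array, so the values are given side by side and not as independent evidence. UBN1 had -0.14 at 12 h and 1.18 at 24 h. CDC42BPA, a kinase acting downstream of CDC42, stood at 1871, 2387 and 3910.1, with 0.35 and 1.06, but its 5 probe sets spanned -0.19 to 1.06. FAM219A stood at 240, 337 and 581, with 0.49 and 1.28, and was past 2-fold in each of the 9 ways of processing. EIF3C, a subunit of the initiation factor eIF3, was at 109, 154 and 332 on its own dim probe set, a difference of 1.61. The 3 bright probe sets that it shares with EIF3CL, at 6616 to 7700 units in the control, were at 0.30 to 0.31. RAB6A, a Golgi RAB protein, was likewise at least 2.13-fold higher on a probe set below the floor in the control, while the 2 bright probe sets that it shares with other RAB6 genes were at 0.12 and 0.19. JAKMIP3 and SLC30A3, a zinc transporter, lay below the floor in the control and at 12 h and reached 149 and 132 units. KCTD6, SLC27A4 and ZNF345 are given above, and the remaining late higher genes, named after their values were seen, were LINC03011 at 1.01, FLJ46875 at 1.02, BRWD3 and ANKRD44. The 3 probe sets of BRWD3 were at 1.003, 0.21 and -0.43, and those of ANKRD44 at 1.05, 0.21 and -0.37.

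Late lower genes included secreted and structural proteins. SFRP1, which binds and blocks Wnt ligands, stood at 219.7, 145 and 72.2, with -0.60 at 12 h and -1.61 at 24 h. KRT15 stood at 347, 192 and 119, with -0.85 and -1.55. SMAD6, which inhibits BMP receptors, stood at 776, 522 and 307, with -0.57 and -1.34. BRME1, a meiotic recombination protein, stood at 237, 188 and 84.8, with -0.34 and -1.49, and MATN3, a cartilage matrix protein, at 142, 128 and 61.6, with -0.15 and -1.21. RARRES1, a retinoid-responsive membrane protein, was at least 2.51-fold lower from 154 units. Each of these 6 genes except RARRES1 rested on 1 measured probe set. Over the 9 ways of processing, the difference nearest 0 was -0.19 for SFRP1, -0.30 for BRME1 and -0.85 for KRT15. SMAD6, MATN3 and RARRES1 stayed past 2-fold in those that gave them a value. SLC8A1, the sodium and calcium exchanger, named after its values were seen, stood at 1382, 1182 and 686, with -0.23 and -1.01 on its brightest probe set. Its 5 probe sets spanned -1.09 to 0.05 at 24 h, and the second brightest was already at -0.89 at 12 h. The noncoding transcripts STX17-DT and LINC01224 were at -1.50 and -1.33, and RUNDC3A was at least 2.75-fold lower on a probe set with possible cross-hybridisation. The other late lower genes, apart from ARHGEF17, WDR62 and SORBS3, lay between -1.67 and -1.01 and were named after their values were seen. They were PLEKHG2, with another probe set at 0.74, FBRS, with another at 0.43, C1QTNF6, ALKBH4, COL4A4, a basement membrane collagen, ARSI, TMIGD2, which lay below the floor at 24 h, and PIF1, a DNA helicase.

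**Figure D3:**
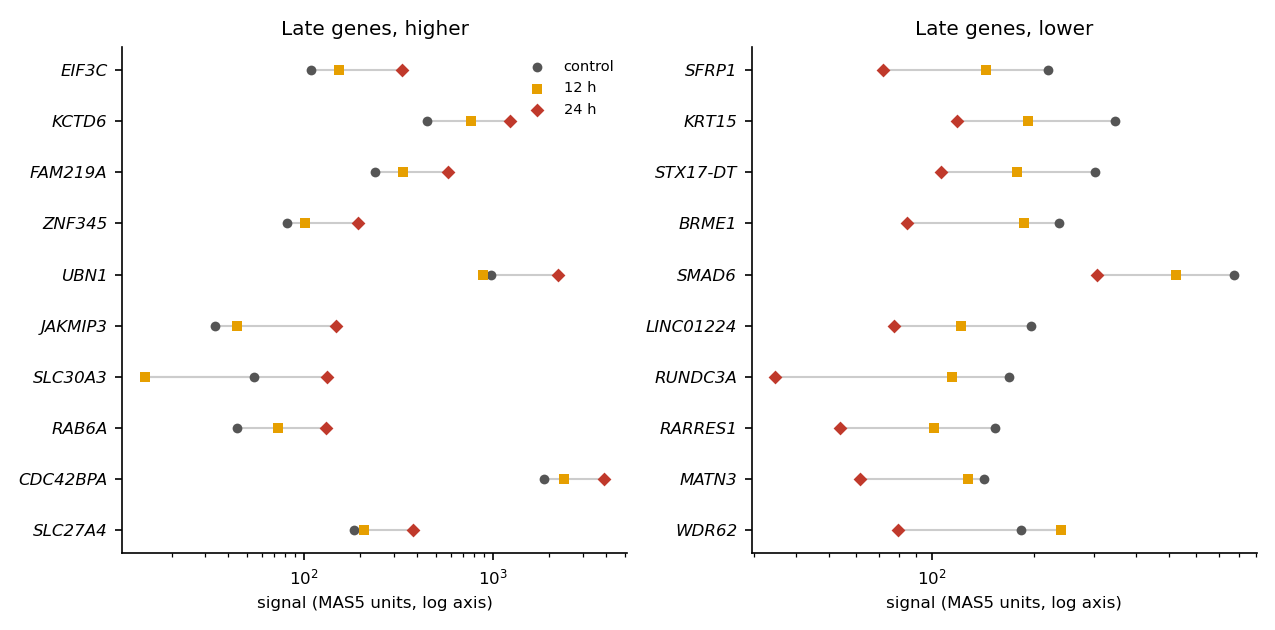
MAS5 signal (log axis) on the control, 12 h and 24 h arrays for the 10 late genes each way with the largest differences that met the naming rule. For most of these genes the 12 h signal lies between the others, with UBN1, SLC30A3 and WDR62 as exceptions, and JAKMIP3, SLC30A3, RAB6A, RUNDC3A and RARRES1 have signals below the floor of 61.4.

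Lists outside stress and the cell cycle were then described by their measured members. A member was counted at 1.5-fold, which 4.04% of all measured genes passed on the higher and 4.87% on the lower side. TGF-beta and BMP signalling had a median of -0.17 over 42 measured members, with 31 lower, 8 of them by 1.5-fold, and 11 higher, 2 by 1.5-fold. Of its ligands and carriers 9 of 11 were lower. TGFB2 stood at 833, 328 and 242 units, a difference of -1.78, and its 3 probe sets spanned -1.78 to -0.37, while TGFB1 was at -0.48 and TGFB3 at -0.01. LTBP2, a latent TGF-beta binding protein, was at -0.74. Of the receptors 8 of 10 were lower, with TGFBR1, the type I receptor, at 5174, 3879.9 and 3366, a difference of -0.62, and ACVR2B, an activin receptor, at -0.73. Among the intracellular members SMAD3, the receptor-activated SMAD of TGF-beta, was at -0.71, SMAD6 at -1.34 and PMEPA1, a feedback inhibitor that TGF-beta turns on, at 6055, 3935 and 3317, a difference of -0.87 with 3 of 3 probe sets between -1.15 and -0.69. The targets parted, as ID3, an inhibitor of helix-loop-helix factors, was at 1987, 1072 and 1126, a difference of -0.82, its relative ID1 at 1649, 2196 and 2625, a difference of 0.67, and TGFBI, a matrix protein, at 0.02.

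Wnt signalling had a median of -0.22 over 33 measured members, with 28 lower, 6 of them by 1.5-fold, 4 higher and 0 higher by 1.5-fold. Ligands and inhibitors were lower for 7 of 8. WNT7B stood at 359.7, 197 and 186, a difference of -0.95 on a probe set with possible cross-hybridisation. WNT5B was at -0.67, and WNT5A, a ligand of the beta-catenin-independent branch, stood at 3131, 2561 and 2395, a difference of -0.39. Receptors were lower for 13 of 14, with ROR1, a receptor of WNT5A, at 574, 411 and 331, a difference of -0.79, and LRP5, a co-receptor, at -0.49. CTNNB1, beta-catenin, stood at 9428, 8054 and 7589.5, a difference of -0.31, and TCF7L1, a repressor on Wnt targets, at -0.64. NKD1, a feedback inhibitor, lay below the floor at 24 h, at least 1.91-fold lower. In the Notch list, with a median of -0.09 over 22 members, NRARP, a feedback target, was at least 2.12-fold lower from 130.3 units, JAG2, a ligand, was at -0.60 and JAG1 at 0.39.

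Of YAP and TEAD target genes 16 of 16 measured members were lower, with a median of -0.47 at 24 h and -0.46 at 12 h, and 3 passed 1.5-fold. CCN1, a matricellular protein, stood at 12208, 6708 and 8220.5, with -0.86 at 12 h and -0.57 at 24 h, and CCN2, its relative, at 1828, 975 and 1069.9, with -0.91 and -0.77. ARHGEF17 was at -1.05, and TGFB2, which is on this list too, is described above. YAP1 and the TEAD factors lay between -0.14 and 0.17. Among the kinases and adaptors upstream 11 of 14 were lower, led by MOB3B at -1.10, with 4 probe sets spanning -1.10 to -0.53, and FRMD6, an adaptor, at 4256, 3227 and 2621, a difference of -0.70. VGLL1, a TEAD cofactor, stood at 2507, 1565 and 1522, with both probe sets past 1.5-fold, and VGLL3, its relative, named after its values were seen, at 4402, 2352 and 2317, again with both.

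The matrix list holds 19 collagen genes and not the whole family, as COL15A1 and COL4A4, given above, are not on it. Its collagen genes were lower for 14 of 14 measured members, with a median of -0.50 at 24 h and -0.35 at 12 h. Of these, 4 passed 1.5-fold. COL16A1, a fibril-associated collagen, stood at 311, 238 and 162, a difference of -0.94, COL8A1, a short-chain collagen, was at -0.61 and COL12A1 at -0.62. COL3A1 stood at 877, 650.4 and 585, a difference of -0.58, and COL1A1 at 729.8, 689 and 495, a difference of -0.56 on its brightest probe set, with the others up to 0.50. THBS1, the matricellular thrombospondin 1, stood at 10159, 7899 and 5839, a difference of -0.80 with 4 probe sets spanning -1.32 to -0.51, AGRN, the proteoglycan agrin, at 505, 456 and 264, a difference of -0.93, and TIMP3, a matrix-bound metalloprotease inhibitor, at -0.71. The second probe set of AGRN, with possible cross-hybridisation, was at -0.93 at 12 h and -0.53 at 24 h. Matrix proteases and inhibitors had a median of 0.01 and 12 of 24 higher, and MMP15, a membrane metalloprotease, was at 0.88. The mesenchymal markers of the matrix list went the other way from its collagens, with a median of 0.22, 6 of 9 higher and 3 lower. The whole matrix list had a median of -0.19 over 69 members, 44 of them lower. Of 12 fibroblast and endothelial markers 6 were measured, and these 6 were all lower too, with a summed signal of 2425, 2040.4 and 1671 and a median of -0.57. COL1A1, COL3A1 and ACTA2 are on both lists, while COL1A2, DCN, LUM, PDGFRB, CDH5 and VWF lay below the floor on every array. The part of such cells in the result was not tested.

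Receptors and surface proteins that hold epithelial cells to the matrix were lower in part. Integrins were lower for 10 of 12 with a median of -0.30, led by ITGB4, the hemidesmosome integrin, at 358, 277 and 205, a difference of -0.81, and ITGA1, a collagen receptor subunit, at -0.74, while ITGB1, the common partner subunit, stood at 27272, 26126 and 26983, a difference of -0.02. TNS4, a tensin of focal adhesions, was at -0.80 and CAV1, the coat protein of caveolae, at 15016, 12360.5 and 10491, a difference of -0.52. The dim second probe sets of ITGB4 and TNS4 were at -0.17 and 0.11. Semaphorins, netrins and their receptors were lower for 22 of 27 with a median of -0.26. SEMA7A, SEMA3E and SEMA5A were the 3 past 1.5-fold, at -0.83, -0.65 and -0.64. The value of SEMA3E came from a probe set with possible cross-hybridisation. Of growth factors and receptors 28 of 38 were lower with a median of -0.17. IGFBP3, a carrier of insulin-like growth factors, stood at 5935, 5189 and 3109, with -0.19 at 12 h and -0.93 at 24 h, and its 2 probe sets were at -0.93 and -0.89. FGFR2, a fibroblast growth factor receptor, stood at 2693, 1409.6 and 1488, a difference of -0.86. PDGFB stood at 574, 327 and 264, a difference of -1.12 on a probe set with possible cross-hybridisation, and was at -0.35 on its second. EGFR, the oncogene of this line, was at 2973, 2387 and 2695, a difference of -0.14.

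Epithelial junction and keratin genes had a median of -0.05 over 38 members, with 24 lower and 13 higher. Of these, 5 were 1.5-fold lower (13.2%, against 4.87% of all genes), 3 of them keratins, and 2 were 1.5-fold higher (5.26%, against 4.04%). CDH1, E-cadherin, stood at 20421, 20218 and 20492, a difference of 0.01, and single genes parted from it in both directions. CLDN4, a tight junction claudin, stood at 515, 831 and 888, a difference of 0.79, and KRT16, a keratin of stressed epithelium, at 474, 712 and 749, a difference of 0.66, while PKP2 was at -1.08, KRT15 at -1.55 and KRT19 at -0.60. Of 11 factors of epithelial lineage 9 were lower with a median of -0.26. SOX4, a factor of progenitor cells, stood at 1586, 1344 and 796, with -0.24 at 12 h and -0.996 at 24 h on its brightest probe set. Its 4 probe sets spanned -0.998 to -0.523 at 24 h, and the second brightest was already at -0.87 at 12 h. SOX9, a factor of distal lung progenitors, stood at 1526, 1096 and 904, a difference of -0.76.

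**Figure D4:**
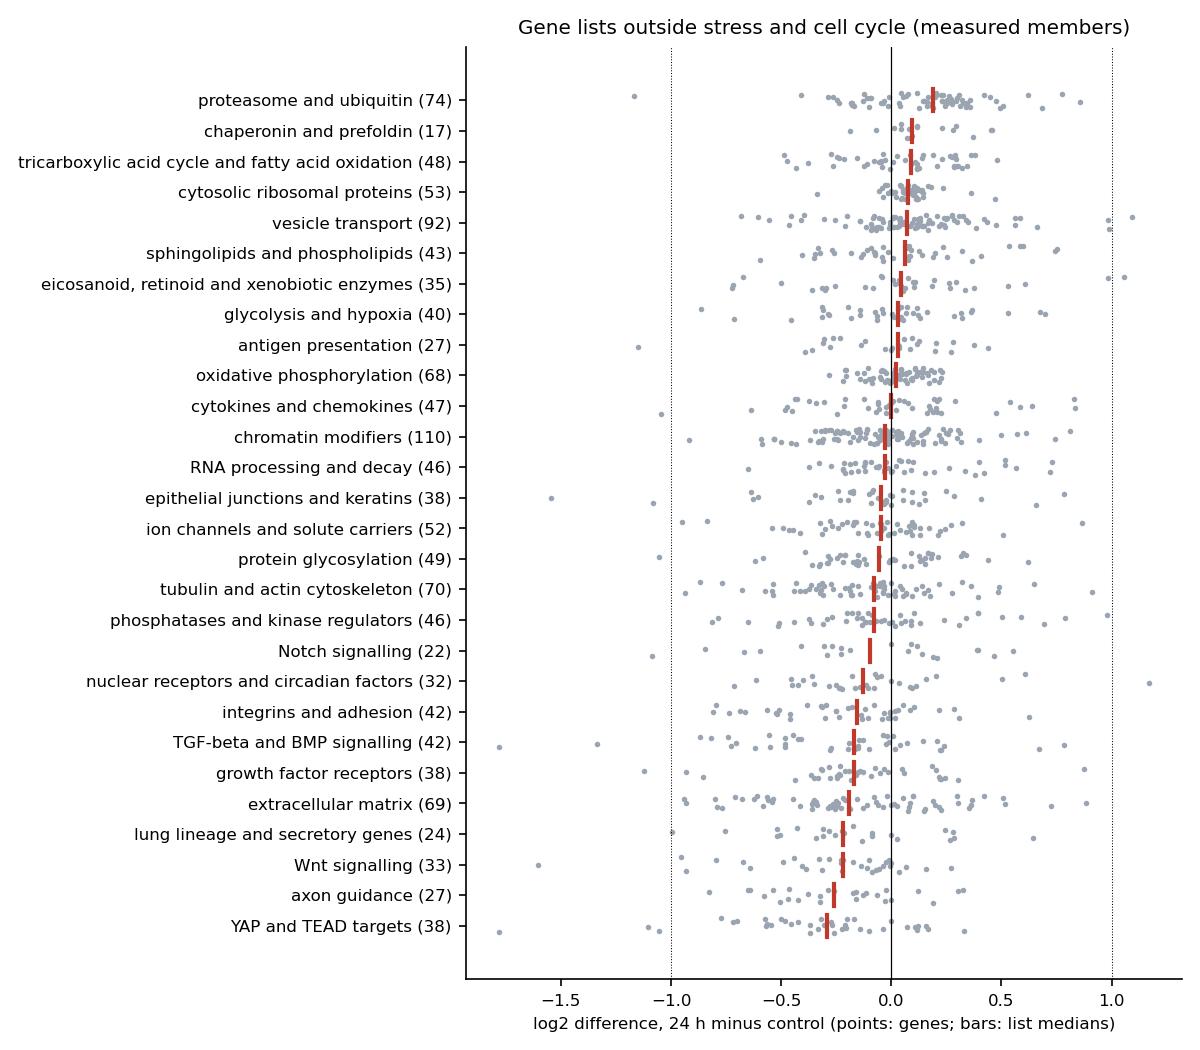
Log2 difference (24 h minus control) of each measured member (grey points) of 28 gene lists outside stress and the cell cycle, with list medians as red bars and the number of members in parentheses. Medians run from -0.29 for YAP and TEAD targets with their regulators to 0.19 for proteasome and ubiquitin genes, and single members reach further than any median.

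Several lists of housekeeping functions were described in the same way. Oxidative phosphorylation genes had a median of 0.02, and 0 of 68 passed 1.5-fold either way. The same held for 0 of 48 genes of the tricarboxylic acid cycle and fatty acid oxidation, with a median of 0.09, and for 0 of 53 cytosolic ribosomal proteins, of which 46 were higher with a median of 0.08. Proteasome subunits were higher for 29 of 31 with a median of 0.29 at 24 h and 0.11 at 12 h. PSMD4, a ubiquitin receptor of the proteasome, stood at 5640, 7670.2 and 9062, a difference of 0.68, and USP5, a deubiquitinase, was at 248, 148 and 110, a difference of -1.17 on 1 dim probe set. Coats and tethers of vesicles were higher for 27 of 35 with a median of 0.12. GOLGA2, the Golgi tether GM130, stood at 1710.3, 2182 and 3381, a difference of 0.98, though its 4 probe sets spanned 0.13 to 0.98. Antigen presentation genes of class I and II had a median of 0.002 with 0 of 19 past 1.5-fold, and HLA-B stood at 11330.4, 12051 and 13029.9.

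Members of further lists stood apart from medians near 0.00. MAP2, a microtubule-associated protein of neurons, stood at 447, 716 and 842, and its 2 probe sets spanned 0.87 to 0.91. CBX5, the heterochromatin protein HP1 alpha, stood at 4024, 2851 and 2126, a difference of -0.92, with 6 probe sets spanning -0.92 to -0.29. HDAC6, a tubulin deacetylase, was at 399.5, 495 and 702, a difference of 0.81. HK2, a hexokinase, was at 1094, 1255 and 1775 and SLC2A3, the glucose transporter GLUT3, at 384, 284 and 211, differences of 0.70 and -0.86. The dimmer probe sets of HK2 were at -0.30 and 0.47. The SLC2A3 value came from a probe set with possible cross-hybridisation, and its other single-gene probe sets were at -0.65 and -0.63. Those that it shares with SLC2A14 were at 0.39 and -0.28. EIF4EBP1, an inhibitor of cap-dependent translation, stood at 1122, 2088 and 1941, a difference of 0.79, and PHLPP1, a phosphatase of AKT, at 386, 192 and 219.5, a difference of -0.82. SCNN1A, a subunit of the epithelial sodium channel, stood at 297, 116 and 154, a difference of -0.95. TNFRSF1B, the tumour necrosis factor receptor TNFR2, was at -1.05 at dim signals, and IL6 was at 2124, 2056 and 2396, a difference of 0.17. Of 399 measured zinc finger genes 24 were 1.5-fold higher (6.02%) and 19 lower (4.76%) with a median of 0.03. Of 386 long noncoding RNA genes 16 were higher (4.15%) and 26 lower (6.74%) with a median of 0.00. Over all measured genes these shares were 4.04% and 4.87%.

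A stricter view, chosen after the values were seen, took the 5513 genes outside the lists set aside with at least 2 probe sets above the floor in both conditions. Every such probe set of the gene passed 1.5-fold on the higher side for 23 of them and on the lower side for 35. Of these, 4 higher genes (SLFN5, MLLT3, ZNF568 and ZFTRAF1) and 4 lower ones (TGFB2, FGFR2, NAV2 and HIVEP3) had a dimmer probe set, below the floor on 1 or both of these arrays, that fell short of 1.5-fold. DAP3, a mitochondrial ribosomal protein, stood at 4614, 5282 and 7242 with 3 probe sets between 0.65 and 0.68, and PABPC1L, a poly(A)-binding protein, at 2134, 3451 and 3823, a difference of 0.84. MOSPD1 stood at 685, 1023 and 1248, a difference of 0.87, MMAB, an enzyme of cobalamin metabolism, at 739, 1318 and 1295, a difference of 0.81, and CLU, the secreted chaperone clusterin, at 141, 186 and 232, a difference of 0.72. F2R, the thrombin receptor PAR1, stood at 425 in the control and at 12 h and at 226 at 24 h, a difference of -0.91 that lay after 12 h. TLCD2 stood at 1185, 1326 and 1795, with 0.16 and 0.60. GPRC5A, a retinoid-induced receptor of lung epithelium, stood at 2007, 1113 and 1058, a difference of -0.92, and CITED2, a cofactor of CBP and p300, at 1701, 1257 and 1044, a difference of -0.70. KLK7 and KLK8, secreted kallikrein proteases, were at -0.91 and -0.67, and NNT, the mitochondrial transhydrogenase that makes NADPH, stood at 775, 578 and 505, a difference of -0.62.

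**Figure D5:**
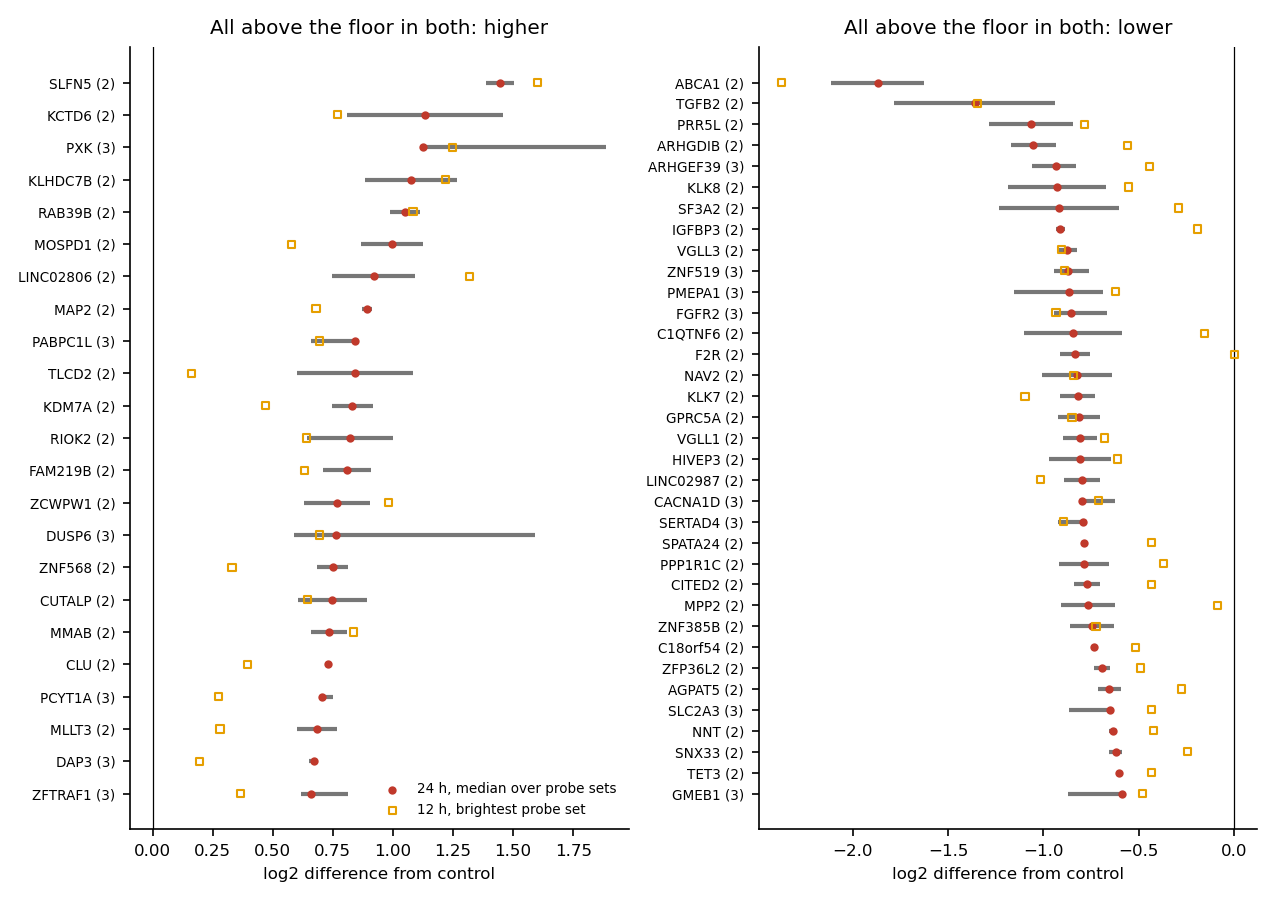
For the 23 higher and 35 lower genes whose probe sets above the floor in both conditions all passed 1.5-fold at 24 h, grey bars span the probe sets' log2 differences from control at 24 h, red points mark their medians, orange squares mark the brightest probe set at 12 h, and the number of probe sets is in parentheses. Most 12 h squares lie on the same side of 0 as the 24 h values; F2R lies at 0.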

How the data were processed

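The deposited intensity values were linear MAS5 signals, per the submitters' processing notes. For MAS5, the sources used here give no version or settings. The trimmed mean signal was 500 on each of the 3 arrays. Arrays were not rescaled. Genes came from the platform annotation through Entrez identifiers (41097 with 1 gene, 41043 of them matched to a current record, 1801 with several, 11777 with none). The 50th percentile of all values, 61.4, was the floor to which lower signals were raised. A gene took its probe set with the highest mean log2 signal over the 3 arrays.

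Each group held 1 array (replicate 1), so differences of log2 signal were counted at 2-fold and 1.5-fold and no test was made. The counting was tested on simulated data with planted changes larger than 2-fold in bright genes. That checks the counting and does not measure how reliable calls near 2-fold or at dim signals are. Named were up to 15 genes each way by size above the floor, 6 at the floor and 10 late ones, without another probe set of clearly opposite sign, and up to 4 of each of 28 lists past 1.5-fold. The genes, lists and alternatives were chosen with earlier results of these data known. The 8 alternatives covered scaling, floor, probe set choice and leaving out the 12 h array. Python 3.11.15, pandas 2.3.3, numpy 2.4.6 and matplotlib 3.10.9 were used.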

Additional observations from a re-analysis of the deposited data

Results flagged for a closer look

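Among genes 2-fold from the control at 24 h, a pair stood on opposite sides of the control at the 2 times. SORBS3, a vinexin of focal adhesions, had signals of 144, 198 and 71.7 (control, 12 h, 24 h), differences of 0.46 and -1.01. WDR62, a spindle pole protein, had signals of 183, 240.1 and 79.7, differences of 0.39 and -1.20, and its second probe set was at -0.21 at 24 h, while that of SORBS3 was at -0.01. Both genes had signals below 300 units, and the difference between the times was not tested.

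Probe sets outside the gene comparisons also differed. Of 4346 measured probe sets with no gene in the annotation 84 were 2-fold or more higher at 24 h (1.93%) and 35 lower (0.805%). Of 1143 measured probe sets that the annotation gives to several genes 10 were higher (0.875%) and 8 lower (0.700%). Among genes, each counted on its brightest probe set only, the shares were 0.567% and 0.624%. The share past 2-fold varied with signal, and these classes were not matched for it, so the shares are not like for like.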

How the results depend on the processing

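The counts of 2-fold genes moved most with the floor under dim signals, since a gene at the floor has a bound only. With the floor at the 25th percentile, at the 65th percentile, or with no floor and a pseudocount of 1, higher genes numbered 732, 34 and 1613 against 70, and lower genes 872, 27 and 1848 against 77. Outside stress and cell cycle lists they numbered 708, 17 and 1589 against 53 higher, and 864, 22 and 1838 against 71 lower. Of the 53 and 71, 17 and 22 remained with the highest floor and 50 and 69 with none. Late genes numbered 401, 5 and 880 against 14 higher, and 437, 2 and 1175 against 21 lower. With transcript-specific probe sets 24 late genes were higher, 12 of them among the 14. Scaling to equal medians, quantile normalization, the median over probe sets and leaving out the 12 h array kept the other counts within 1.5 times. Late counts were not run without the 12 h array. Of 131 differences of genes named by rule 126 kept their direction, and 78 stayed past the same fold, in every alternative that gave them a value. VEPH1 was at 0 with transcript-specific probe sets and WDR62 with the 65th percentile floor. The other exceptions were FAM174B, at -0.27 with the 12 h array left out and with transcript-specific probe sets, LIFR at -0.31 with the 12 h array left out, and NCOA1 at 0.0427 with that array left out and 0.0886 with transcript-specific probe sets; the cause was not tested. Among the 2-fold genes named after their values were seen, BRWD3 was at -0.43 and FBRS at 0.43 with transcript-specific probe sets, and SORBS3 was at 0 with the 65th percentile floor. The median over probe sets put 31 of the 131 under the fold. With the 65th percentile floor 73 stayed past it, 26 fell under it and the rest had no value. With transcript-specific probe sets 91 stayed past it, 5 fell under it, 2 changed sign and the rest had no value. Of 13 list medians at least 0.2 from 0 on the log2 scale 12 kept their direction, and that of Notch nuclear factors and targets was 0.00241 with the 25th percentile floor and 0.00237 with no floor, against -0.25. Of 55 list medians nearer 0, 16 were at 0 or on the other side in at least 1 alternative. Past 2-fold under all 9 settings were 11 higher genes (ALDH2, CALCB, ECM2, FAM219A, HTATSF1P2, KCTD6, KLHDC7B, LINC03011, PXK, SLFN5 and TBC1D19) and 9 lower ones (ABCA1, EFNA2, GASK1B, HAS3, RAP1GAP2, STEAP4, SYNGR3, UCA1 and VTCN1). No paired analysis was possible because each group held 1 array.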

Other observations

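Gene length went with the direction of the differences, a pattern looked for after the values were seen. Among 1800 genes outside stress and cell cycle lists with a mean signal over 200 and a genomic span of up to 10 kb, 42.2% were lower at 24 h and the median difference was 0.04. The median was 0.03 over 2666 genes of 10 to 30 kb, -0.02 over 3084 genes of 30 to 100 kb, -0.07 over 1088 genes of 100 to 200 kb and -0.08 over 611 genes above 200 kb, of which 62.5% were lower. The medians at 12 h were 0.06 and -0.07 in the shortest and the longest class, with the same control array. In the longest class 6.06% of genes were 1.5-fold lower and 2.78% were 1.5-fold higher, against 3% and 3.94% in the shortest. The measured members of the axon guidance list had a median span of 133 kb and those of the YAP and TEAD list 87.4 kb, against 28.8 kb over all measured genes. The ratio of 3' to 5' signal of ACTB was 4.95 in the control and 6.55 at 24 h, and its part in this pattern was not tested. No test was made across genes, which are not replicates of a condition.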
